A study of Mus musculus with 22 samples.

Results

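The genes of the insulin and insulin-like growth factor (IGF) system described here are the 2 receptor genes Insr and Igf1r, the ligand gene Igf1, the adaptor genes Irs1 and Irs2, and the binding protein genes Igfbp2, Igfbp3, Igfbp4, Igfbp5 and Igfbp7. They were chosen by symbol, and all 10 were present among the 20668 genes counted in nuclei and the 16304 genes counted in whole cells. RNA came from the hypothalamus of 22 male ob/ob mice of 11 weeks, which lack leptin, so that the control mice shared the obese, diabetic background. Each mouse received 1 intracerebroventricular (icv) injection of 3 µg FGF1 or of PBS vehicle, and vehicle mice were pair-fed to the intake of FGF1 mice. Single nuclei were sequenced from 3 FGF1 and 3 vehicle mice on Day 1 and from 2 and 2 mice on Day 5, and whole cells were sequenced from 6 and 6 further mice on Day 5.

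Insulin and IGF-1 bind receptor tyrosine kinases (encoded by Insr and Igf1r) that pass the signal to the adaptors IRS1 and IRS2, and from these to PI3K and AKT. IGF binding proteins hold IGFs outside the cell, carry them to or keep them from the receptor, and some bind matrix or cell surfaces in their own right. In the hypothalamus, insulin and IGF signals take part in the control of feeding and glucose, and glia and vessel-associated cells are known sources of IGF binding proteins.

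Nuclei held 3529889 to 12612245 UMIs per mouse on Day 1 and 2721087 to 16345981 on Day 5, and whole cells held 2652897 to 11866269. On Day 1 the median nucleus of an FGF1 mouse held 2029 to 2816 UMIs, fewer than the 3178.5 to 3776 of vehicle mice. Of the barcode sequences, 1.29% of those in nuclei and 3.375% of those in whole cells were found in more than 1 mouse. Nuclei carry the cell types that the authors annotated. The label of committed oligodendrocyte precursors met 7 of 7 of their markers and 4 of 5 markers of oligodendrocyte precursors, which had no label of their own. Neuronal RNA was found under the oligodendrocyte, COP (committed oligodendrocyte precursor) and microglia labels, and also under the labels that carry the results below: on Day 1 the 5 neuron markers summed to 1969 to 6060 CPM in astrocytes, 2656 to 4593 in VLMC, 2293 to 5853 in ependymal nuclei and 4982 to 7459 in tanycytes, where the tanycyte markers summed to 1465 to 3667. Whole cells carry cluster numbers, which were given a name here from marker genes: clusters 0, 7 and 10 were tanycyte-like (3, 5 and 6 of 9 markers), cluster 6 ependymal-like (6 of 6), clusters 1 and 4 astrocyte-like (7 of 7 in each), cluster 3 endothelial-like (6 of 6, with 5 of 7 pericyte markers), cluster 13 like vascular and leptomeningeal cells (VLMC, 5 of 5), cluster 15 pericyte-like (5 of 7) and cluster 16 macrophage-like (5 of 6). Levels are counts per 1e6 UMIs (CPM) of a type in 1 mouse, summed over its barcodes. The UMI base holds only the genes that passed the low-count filter in that type, and is scaled by TMM. It leaves out more UMIs in types with few barcodes, which raises their levels. Orders of cell types and gaps between them hold for this scale only. Marker sums, and values given without TMM scaling, are per 1e6 of all UMIs. Levels depend on gene length and on where a transcript is primed, and are compared here between cell types and mice, not between genes.

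In the GENCODE vM21 annotation of GRCm38, Igfbp2 (chr1:72824503-72852474, plus strand) and Igfbp5 (chr1:72857932-72874884, minus strand) lie tail to tail, with 5457 bases between their ends. Insr lies at chr8:3122061-3279617 (minus), Igf1r at chr7:67952827-68233668 (plus), Igf1 at chr10:87858265-87937042 (plus), Irs1 at chr1:82233101-82291416 (minus), Irs2 at chr8:10984681-11008458 (minus), Igfbp3 at chr11:7206086-7213923 (minus), Igfbp4 at chr11:99041244-99054392 (plus) and Igfbp7 at chr5:77349240-77408041 (minus). Exons of Irs1, Irs2 and Igfbp7 overlap an antisense gene (Gm9747, 9530052E02Rik and Polr2b), and whether the counting kept to 1 strand is not given in the sources used here. The values of these 3 genes are uncertain to that extent.

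Igfbp2, Igfbp5 and Irs2 are the genes that passed the test in a comparison below, so the stretch upstream of their start is shown. The sequences are from RefSeq on GRCm38.p6, written 5′ to 3′ on the gene's strand and ending before the first annotated exon. They come from chr1:72824230-72824479 (Igfbp2, plus strand, 250 bases), chr1:72874885-72875115 (Igfbp5, minus strand, 231 bases) and chr8:11008930-11009179 (Irs2, minus strand, 250 bases). Capitals mark an E-box (CACGTG).
Igfbp2: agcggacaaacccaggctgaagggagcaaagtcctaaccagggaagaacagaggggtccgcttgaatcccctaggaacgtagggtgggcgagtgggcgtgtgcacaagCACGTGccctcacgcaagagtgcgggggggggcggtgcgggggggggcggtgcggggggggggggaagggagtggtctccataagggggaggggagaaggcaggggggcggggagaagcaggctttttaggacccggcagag
Igfbp5: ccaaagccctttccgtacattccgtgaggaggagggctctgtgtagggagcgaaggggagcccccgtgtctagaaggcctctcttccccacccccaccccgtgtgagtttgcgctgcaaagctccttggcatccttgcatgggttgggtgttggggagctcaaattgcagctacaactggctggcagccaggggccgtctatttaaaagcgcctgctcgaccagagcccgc
Irs2: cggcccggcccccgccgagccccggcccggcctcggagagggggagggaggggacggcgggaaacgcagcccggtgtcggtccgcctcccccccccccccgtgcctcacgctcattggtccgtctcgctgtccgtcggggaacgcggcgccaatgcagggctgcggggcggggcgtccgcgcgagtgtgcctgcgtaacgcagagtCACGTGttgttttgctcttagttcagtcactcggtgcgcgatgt
A set of motifs was searched on both strands of the RefSeq promoters (250 bases before to 50 after the start): a TATA box (TATAAA), a FoxO site (TGTTTAC), an AP-1 site (TGANTCA), a CRE (TGACGTCA) and the E-box. They occur in 13.6%, 3.65%, 7.81%, 1.79% and 7.15% of 32851 mouse promoters. Promoters of 9 of the 10 genes were at hand. The E-box was found 142 bases before the start in Igfbp2, 115 in Irs1 and 44 in Irs2, and no motif of the set lay in the windows of Igf1r, Igfbp3, Igfbp5 and Igfbp7. A second RefSeq start of Igfbp2, whose window begins at position 72825137 of chromosome 1, held an AP-1 site, as did Igf1, and Igfbp4 held a TATA box. These matches describe letters, not bound sites.

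Where the genes were expressed was read first from vehicle whole cells on Day 5, over 18 clusters with at least 10 cells in at least 2 mice. The 2 receptor genes were high in endothelial-like cluster 3. Igf1r stood at 886 ± 86.9 CPM there (SD, 6 mice, 771 to 961), above every mouse of the next cluster, 19 (327 ± 211 CPM in 2 mice, a small cluster left without a name), and followed without a gap by pericyte-like cluster 15 (316 ± 164) and macrophage-like cluster 16 (235 ± 129). Cluster 19 was led by Acta2, Tagln and Myh11, and met 5 of 7 pericyte and smooth muscle markers and 4 of 6 endothelial markers. Insr was at 115 ± 23.9 CPM in cluster 3 (88.7 to 148.8), and the ranges of the clusters next in order overlapped it. Igf1 RNA was found in macrophage-like cluster 16 at 149 ± 131 CPM (4 mice, 0 to 264.9), followed by VLMC-like cluster 13 (13.2 ± 18.8) and microglia-like cluster 8 (1.78 ± 3.28). Neighbours in that order overlapped.

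The adaptor genes were more evenly spread. Leaving out cluster 19 (2 mice), Irs1 ranked first in COP-like cluster 9 (81.0 ± 52.6 CPM), pericyte-like cluster 15 (72.3 ± 32.7) and ependymal-like cluster 6 (41.7 ± 14.1), and Irs2 in unnamed cluster 18 (216 ± 115), then in clusters 13 (156 ± 149), 16 (149 ± 97.1) and 9 (103 ± 53.6). None of these neighbours was separated by its range over mice. Cluster 18 met 5 of 5 oligodendrocyte precursor and 5 of 6 oligodendrocyte markers.

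Igfbp2, Igfbp3, Igfbp4 and Igfbp5 had their highest mean in VLMC-like cluster 13, with a wide spread between its 4 mice. Unnamed cluster 19, with 2 mice, is left out of the orders that follow. Igfbp2 was at 249 ± 184 CPM there (4 mice, 101.3 to 484.9), above every mouse of ependymal-like cluster 6 (23.6 ± 7.74), the next in order. Igfbp5 was at 4506 ± 4717 CPM in cluster 13 (0 to 10662.4 over the 4 mice), then at 459 ± 244 in astrocyte-like cluster 4 and 331 ± 56.8 in ependymal-like cluster 6. Igfbp4 was at 364 ± 306 CPM in cluster 13, at 117 ± 59.9 in tanycyte-like cluster 10 and at 77.3 ± 44.1 in tanycyte-like cluster 7. Igfbp3 was at 166 ± 194 CPM in cluster 13, at 126 ± 92.0 in unnamed cluster 18, at 79.8 ± 37.4 in cluster 3 and at 52.0 ± 8.72 in OPC-like (oligodendrocyte precursor) cluster 5, whose lowest mouse stood above all mice of the cluster after it. Igfbp7, a protein of vessel walls, was led by pericyte-like cluster 15 (536 ± 106 CPM, 6 mice), with cluster 13 (364 ± 234) and cluster 3 (270 ± 79.4, 206.0 to 420.2) behind it and a gap to the next cluster (18).

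**Figure D1:**
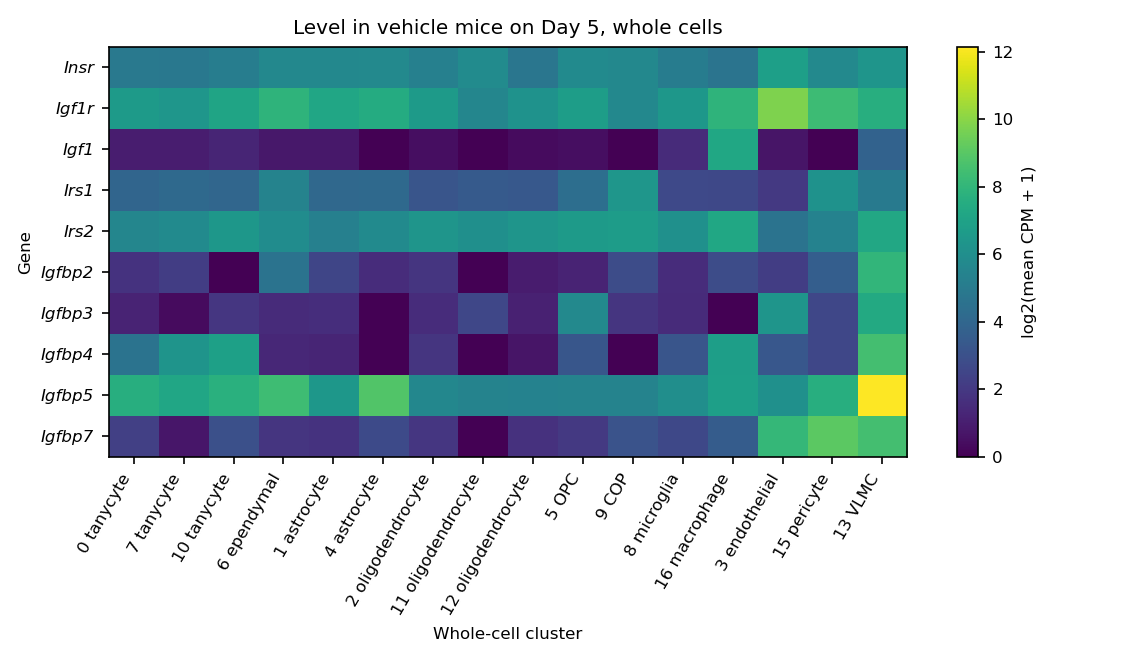
Mean level of each of the 10 genes in vehicle mice, as log2(CPM + 1), by whole-cell cluster on Day 5; rows are genes, columns are clusters. Igf1r is brightest in cluster 3 (886 CPM), Igf1 in cluster 16 (149 CPM), and Igfbp2 and Igfbp5 in cluster 13 (249 and 4506 CPM).

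In vehicle nuclei on Day 1, ependymal nuclei led for Igf1r (1037 ± 304 CPM, 770.9 to 1367.8, 3 mice), ahead of VLMC (464 ± 110, 337.9 to 530.4) and tanycytes (247 ± 53.6). These ranges did not overlap on the scale used here, which leaves out more UMIs in ependymal and VLMC nuclei than in tanycytes. The order over all UMIs was not tested. Ependymal nuclei also led for Insr (327 ± 54.3), Irs1 (239 ± 59.0, separate from VLMC at 83.2 ± 12.6) and Irs2 (169 ± 91.3). VLMC nuclei led for Igfbp2 (207 ± 137), Igfbp4 (317 ± 128), Igfbp5 (361 ± 279) and Igfbp7 (88.5 ± 77.3). Among neurons, Igf1 was highest in the Glu4 type (118 ± 35.9 CPM, 2 mice). Endothelial nuclei reached the minimum of 10 in 2 FGF1 mice and not in 2 vehicle mice, so they were not tested, and Igf1r stood at 3181 and 7096 CPM in those FGF1 mice.

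As a description over the 18 vehicle clusters and 13795 genes with at least 10 CPM in 1 of them, the genes with the pattern most like each member by Pearson's r on log2(CPM + 1) were Hmbox1 (0.854) and Vwa1 (0.843) for Insr, Ablim1 (0.922) and Fzd4 (0.905) for Igf1r, Ms4a7 (0.965) and Ccl7 (0.962) for Igf1, Slc25a17 (0.867) and Fat1 (0.836) for Irs1, and Brd7 (0.847) and Eif2s3x (0.804) for Irs2. For the binding proteins they were Epha3 (0.851) and Colec12 (0.843) for Igfbp2, Otos (0.864) and Cish (0.847) for Igfbp3, Col13a1 (0.883) and Fgl2 (0.855) for Igfbp4, Serping1 (0.869) and Atf5 (0.847) for Igfbp5, and Rgs5 (0.959) and Sept11 (0.956) for Igfbp7. Clusters of 1 mouse share a library, and small clusters rest on few UMIs.

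The next question was how the genes differed between FGF1 and vehicle mice 1 day after the injection. UMIs were summed per mouse and cell type, and FGF1 was compared with vehicle in each type with edgeR's quasi-likelihood test. A gene was called at a false discovery rate (FDR, Benjamini-Hochberg, over all genes tested in that type) below 0.05. In 18 types the 10 genes gave 180 combinations, of which 41 in 13 types passed the filter on low counts and 139 did not. Of these 41, 2 were called, Igfbp2 in astrocytes and Igfbp5 in VLMC, both higher with FGF1, against 1.05% of all gene-by-type tests of that day. Igfbp2 in astrocytes passed the filter through the FGF1 mice alone, since the vehicle mice held 0, 1 and 0 UMIs. A gene that passes in this way can only be higher with FGF1, which limits what the counts of calls and of tests without overlap say. A further 6 had an unadjusted p under 0.05. FGF1 and vehicle mice did not overlap for 8 of the 41, each with FGF1 above, against 15.8% of all tests in either direction. In nuclei, fewer nuclei of a state and less RNA per nucleus cannot be told apart in such sums.

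Igfbp2, which encodes a secreted binding protein with affinity for IGF-1 and IGF-2, rose in astrocyte nuclei. The 3 FGF1 mice had 81.6, 82.5 and 80.2 CPM (75, 31 and 12 UMIs in 388, 113 and 52 nuclei), and the 3 vehicle mice had 0, 1.94 and 0 CPM (0, 1 and 0 UMIs in 57, 148 and 45 nuclei). FGF1 mice thus agreed closely and vehicle mice had almost no Igfbp2 UMI. The fitted log2 fold change was 5.82 ± 0.676 (SE, edgeR FDR = 0.00285), in a type in which 1.39% of the 6063 genes tested were called higher. Since it rests on 1 vehicle UMI, the ratio of the summed UMIs over their library totals, 66.0 with an exact 95% counting interval of 11.6 to 2629.4, shows how wide the fold is. The FDR was 0.0563 without vehicle replicate 1 and at most 0.0466 without any other single mouse.

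At least 1 Igfbp2 UMI was found in 84 of 553 astrocyte nuclei of FGF1 mice (15.2%, exact 95% interval 12.3 to 18.5) and in 1 of 250 of vehicle mice (0.4%, 0.0101 to 2.21), although the FGF1 nuclei were shallower (median 2588 against 3241.5 UMIs). By mouse the shares were 14.2%, 19.5% and 13.5% with FGF1, and no nucleus held more than 4 UMIs. With every nucleus thinned to 1500 UMIs, which left out 31 FGF1 and 0 vehicle nuclei, 55 of 522 FGF1 nuclei (10.5%) and 0 of 250 vehicle nuclei had a UMI, and 0 of 250 allows a share of up to 1.2% by a floor of 3 counts. That floor limits nuclei with a UMI at this depth, not nuclei that hold the transcript. In neurons without a mapped type, taken as a gauge of stray RNA, the unthinned shares were 0.733% of 4231 FGF1 nuclei and 0.233% of 2144 vehicle nuclei (median 2214 and 3228.5 UMIs). The intervals cover counting error only.

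Nuclei with over 5% ribosomal or mitochondrial UMIs, a limit stated by the study, were unevenly spread over the astrocyte libraries, with 294 of 388 in FGF1 replicate 1 (75.8%) and 91 of 148 in vehicle replicate 2 (61.5%) against 4.44% to 10.5% in the other 4 mice. Within the limit, the FGF1 mice kept 12, 29 and 12 Igfbp2 UMIs (46.0, 77.7 and 81.1 CPM without TMM scaling) and the vehicle mice 0, 0 and 0. At these counts Igfbp2 fell below the filter and had no test. With the filter off as well, an alternative chosen after seeing the data, it was called (log2 fold change 6.99 ± 1.06, edgeR FDR = 1.35e-08). The summed astrocyte markers (7 genes, 6 lower with FGF1) were at 2298 to 6286 CPM in FGF1 and 4571 to 7629 CPM in vehicle mice. The VLMC markers, of the cells with the most Igfbp2 RNA, were at 10.9 to 225 CPM in FGF1 and 32.0 to 43.2 CPM in vehicle astrocyte nuclei (2 of 5 genes higher with FGF1). The oligodendrocyte markers were at 50.1 to 212.6 against 173 to 568.9 CPM (6 of 6 lower), the OPC markers at 154.9 to 493.2 against 280.3 to 630.1 (5 of 5 lower), the neuron markers at 1969 to 5398 against 4198 to 6060 (5 of 5 lower) and the COP markers, without overlap, at 339 to 444 against 269.5 to 278.0 (4 of 7 higher). The part of these shifts in the result was not tested.

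Igfbp2 counts were also higher with FGF1 in types where the gene was too low to be tested. In tanycytes the FGF1 mice had 45.3, 58.7 and 33.5 CPM and the vehicle mice 9.04, 9.36 and 0 (21 against 2 UMIs, ratio 6.02, counting interval 1.47 to 53.0). In ependymal nuclei they had 178.8, 94.9 and 136.7 CPM against 29.6, 0 and 28.6 (14 against 2 UMIs, ratio 6.76, 1.55 to 61.3). In unmapped neurons they had 3.06, 2.88 and 2.54 CPM against 0.833, 0.486 and 0.567 (33 against 5 UMIs, ratio 4.72, 1.83 to 15.5). All 3 FGF1 mice stood above all 3 vehicle mice in each of these types, but with the filter off none of them was called. The unmapped neurons were the gauge of stray RNA above. This gauge was itself higher with FGF1, and the part of stray RNA in these counts was not tested. The makeup of these nuclei moved as well. In ependymal nuclei the ependymal markers summed to 873 to 1489 CPM with FGF1 and 2750 to 3712 with vehicle (5 of 6 lower), the astrocyte markers to 466.4 to 1179 against 2046 to 2335 (7 of 7 lower) and the neuron markers to 2781 to 5853 against 2293 to 2664 (3 of 5 higher). In tanycyte nuclei the ependymal markers summed to 75.6 to 100.3 against 302 to 535 CPM (6 of 6 lower) and the astrocyte markers to 1172 to 1815 against 2902 to 4393 (6 of 7 lower). The VLMC markers there were at 5.02, 0 and 340.2 CPM in FGF1 replicates 1, 2 and 3 and at 20.2, 14.3 and 0 in vehicle mice (4 of 5 higher), so the higher sum came from replicate 3. Of the tanycyte nuclei of FGF1 replicate 1, 99 of 119 lay above the 5% limit, and within it the FGF1 mice kept 4, 7 and 1 UMIs and the vehicle mice 1, 1 and 0. The part of these shifts in the Igfbp2 counts was not tested. Summed over the mice, oligodendrocyte nuclei held 5 against 0 UMIs (at least 1.85-fold higher against a floor of 3 counts over the group) and COP nuclei 6 against 0 (at least 2.08-fold higher). VLMC nuclei, with the most Igfbp2 RNA in vehicle mice, held 5 UMIs in FGF1 replicates 1 and 3 together and 20 in the 3 vehicle mice (ratio 0.442, 0.13 to 1.21, an interval that includes equal levels). FGF1 replicate 2, with 6 VLMC nuclei and below the minimum, held 2 more.

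Igfbp5, whose product binds IGFs and the extracellular matrix, rose in VLMC nuclei. FGF1 replicates 1 and 3 had 9982 and 11447 CPM (143 and 358 UMIs in 12 and 28 nuclei), and the vehicle replicates 1, 2 and 3 had 333.9, 652.8 and 96.5 CPM (14, 16 and 2 UMIs in 19, 15 and 12 nuclei). The lower FGF1 mouse stood far above the highest vehicle mouse. The log2 fold change was 4.86 ± 0.842 (SE, edgeR FDR = 1.44e-05), with 1.79% of 1061 genes called higher in that type. Over all UMIs and without TMM scaling, the FGF1 mice were at 5054 and 5434 CPM and the vehicle mice at 173.8, 333.8 and 52.7. The scale used here leaves out UMIs of genes below the low-count filter, which raised the levels of this small type in every mouse.

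At least 1 Igfbp5 UMI was found in 10 of 12 and 13 of 28 nuclei of FGF1 replicates 1 and 3 (83.3% and 46.4%). In vehicle replicates 1, 2 and 3 the shares were 36.8%, 40.0% and 16.7%. Nuclei with 5 or more UMIs numbered 6 and 11 in those FGF1 mice and 0, 1 and 0 in the vehicle mice. The top nucleus held 59 and 62 UMIs in FGF1 replicates 1 and 3, against at most 9 in any vehicle nucleus. Of the nuclei of FGF1 replicate 1, 7 of 12 (58.3%) lay above the limit of 5%, against 0 of 28 in FGF1 replicate 3 and 0 to 6.67% in vehicle mice, and the 5 within it held 75 of its 143 UMIs (6030.9 CPM without TMM scaling). FGF1 replicate 2 had 6 VLMC nuclei and did not enter the fit. It held 73 UMIs, 69 of them in 1 nucleus above the limit of 5%. With a minimum of 5 nuclei, an alternative chosen after seeing the data, all 3 FGF1 mice entered and the log2 fold change was 4.68 (edgeR FDR = 0.0148). Within the limit replicate 2 held 4 UMIs, or 214.3 CPM without TMM scaling, which lies inside the range of the vehicle mice within the limit (52.7 to 355.0), so its level in that fit rests on the 1 nucleus. With the authors' batch as a block it was 5.16 ± 1.6 and was no longer called (edgeR FDR = 0.27). Igfbp5 stayed called without any 1 of the 3 vehicle mice (edgeR FDR at most 0.0331). The log2 fold change was 4.86, 5.57 and 4.45 without vehicle replicates 1, 2 and 3, and 5.64 with replicate number as a block. Leaving out either FGF1 mouse leaves 1 mouse in that arm, with the spread taken from the vehicle mice alone, and says little. The makeup of the type moved with it: the VLMC markers summed to 1867 to 3852 CPM with FGF1 and 896 to 1314 with vehicle (2 of 5 higher, 3 lower), the tanycyte markers to 247 to 562 against 1212 to 1440 (0 of 9 higher), and the neuron markers to 2656 to 3569 against 3766 to 4593. Endothelial markers summed to 247.4 to 349.1 against 447.8 to 667.6 (2 of 6 higher). COP markers summed to 176.7 to 379.4 against 459.0 to 605.8 (1 of 7 higher). Oligodendrocyte markers summed to 141.4 to 288.4 against 316.1 to 396.4 (0 of 6 higher). Macrophage markers went up, from 0 to 12.4 with vehicle to 35.3 to 45.5 with FGF1 (2 of 5 higher). Their part in the result was not tested. VLMC nuclei on Day 5 were too few to be fitted. They held 8 and 5 Igfbp5 UMIs in the FGF1 mice (6 and 7 nuclei) and 6 and 4 in the vehicle mice (3 and 7 nuclei). In whole cells on Day 5, VLMC-like cluster 13 showed 781.5 to 6650.7 CPM in 5 FGF1 and 0 to 10662.4 CPM in 4 vehicle mice, with no call (log2 fold change -0.46 ± 0.895, edgeR FDR = 1.00).

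**Figure D2:**
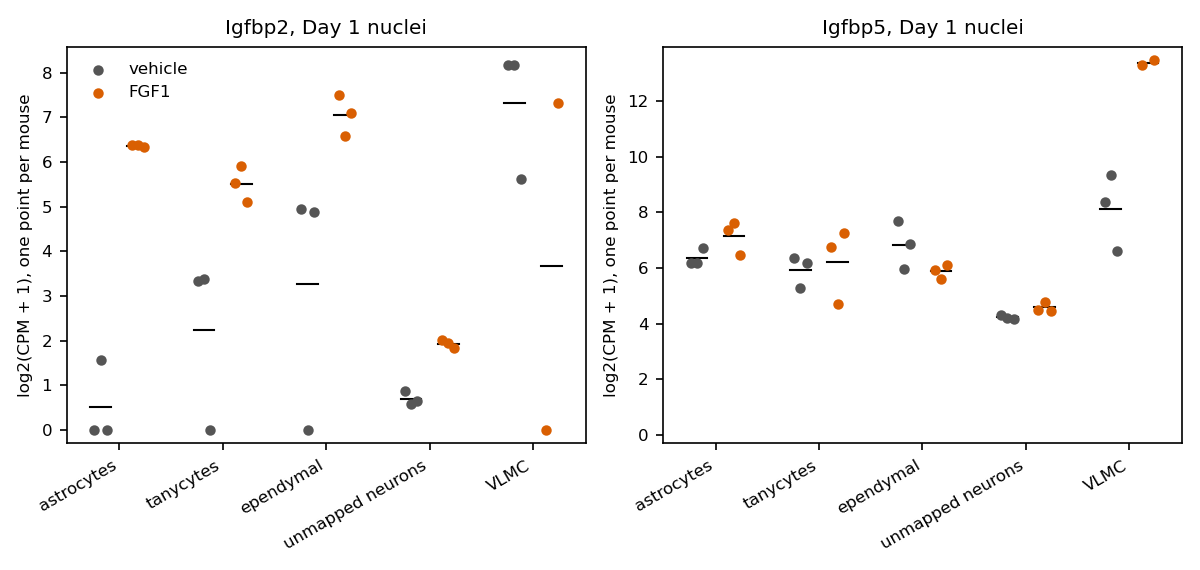
Igfbp2 and Igfbp5 in 5 types of Day 1 nuclei as log2(CPM + 1), 1 point per mouse and a bar at the group mean. Igfbp2 in astrocytes sits near 80 CPM in the 3 FGF1 mice and at 0 to 1.94 CPM in the 3 vehicle mice, and Igfbp5 in VLMC sits at 9982 and 11447 CPM in 2 FGF1 mice and at 96.5 to 652.8 CPM in 3 vehicle mice.

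No other binding protein was called on Day 1. Igfbp5 in astrocytes had 163.2, 197.0 and 86.8 CPM with FGF1 and 71.2, 71.6 and 104.5 with vehicle, so that the groups overlapped by 1 mouse (log2 fold change 0.90 ± 0.441, edgeR FDR = 0.59). Its other tests, in n16.Rgs16/Vip neurons (0.59 ± 0.426) and unmapped neurons (0.39 ± 0.232), also had FDRs of 0.788 or more, though the 3 FGF1 mice stood above the 3 vehicle mice in unmapped neurons (20.9 to 26.7 against at most 18.7 CPM). Igfbp3 in unmapped neurons was at 3.74, 3.66 and 3.17 CPM against 0, 1.46 and 1.70 (log2 fold change 1.71 ± 0.675, edgeR FDR = 0.67). In astrocytes, where it was too low to be tested, Igfbp3 had 26 UMIs in FGF1 and 2 in vehicle mice (ratio 7.27, 1.82 to 63.2). FGF1 replicates 1, 2 and 3 were at 8.37, 17.5 and 54.7 CPM without TMM scaling, and the vehicle mice at 4.57, 1.66 and 0. The FGF1 mice thus differed widely, with replicate 3 highest. The part of the marker shifts in astrocyte nuclei given above was not tested. Within the 5% limit and without the filter, Igfbp3 in astrocytes was called (log2 fold change 3.58, edgeR FDR = 0.0496), close to the threshold. Igfbp4 was tested in VLMC (0.96 ± 0.622) and unmapped neurons (0.46 ± 0.58), and Igfbp7 in unmapped neurons (0.29 ± 0.498).

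Of the receptors on Day 1, Igf1r had a fitted log2 fold change above 0 in 13 of 13 types (0.06 to 0.89), under TMM, under RLE scaling and with the batch as a block, but no type was called (lowest edgeR FDR = 0.396) and 3 had an unadjusted p under 0.05. In n16.Rgs16/Vip neurons it was at 156.8, 243.8 and 173.9 CPM with FGF1 and at most 114.7 with vehicle (107.1 ± 7.36), without overlap (0.85 ± 0.311). In unmapped neurons, the largest type, it was at 98.2, 149.2 and 124.3 CPM against 84.1, 74.8 and 111.8 (0.46 ± 0.236), with overlap. The 13 types come from the same 6 mice and are not independent. Insr, with 10 types tested, was below 0 in 8 and above in 2, from -0.74 ± 0.398 in oligodendrocytes to 0.54 ± 0.363 in Glu5 neurons (edgeR FDR = 0.91 and 0.99), and none had an unadjusted p under 0.05.

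The adaptor genes also had values above 0 in every type tested, 4 of 4 for Irs1 and 4 of 4 for Irs2, without a call. Irs2 in unmapped neurons was at 22.1, 23.6 and 18.4 CPM with FGF1 and 11.2, 14.8 and 10.8 with vehicle, without overlap (0.79 ± 0.26, edgeR FDR = 0.644). It was at 18.8 to 27.4 against 9.44 to 16.8 CPM in n29.Nr5a1/Adcyap1 neurons, again without overlap (0.79 ± 0.406). In astrocytes Irs2 (0.69 ± 0.488) and Irs1 (0.98 ± 0.493) overlapped between the groups. Igf1 passed the filter in unmapped neurons alone, at 17.3 ± 6.49 against 16.9 ± 4.83 CPM (0.01 ± 0.347).

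On Day 5 the 2 FGF1 and 2 vehicle mice gave 38 tests in 10 types of nuclei, and 0 were called with edgeR, with 2 at an unadjusted p under 0.05 and 0 called by DESeq2. Over all genes 0.288% of tests were called. Both results under 0.05 were of Irs1. In astrocytes it was at 37.5 and 40.1 CPM with FGF1 and 14.1 and 16.3 with vehicle (1.27 ± 0.5, edgeR FDR = 0.261). In COP nuclei it was at 61.3 and 61.4 CPM against 17.8 and 39.9 (1.28 ± 0.589, edgeR FDR = 0.455). Igfbp5 in astrocytes was at 122.1 and 130.3 CPM against 74.9 and 84.7 (0.69 ± 0.37, edgeR FDR = 0.443). Igf1r was above 0 in 8 of 10 types. The groups did not overlap in 16 of the 38 tests, 14 with FGF1 above and 2 below, and over all genes this held for 38.9% of tests.

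Igfbp2 in astrocyte nuclei had 7 UMIs in FGF1 mice on Day 5 (2 of 110 and 5 of 384 nuclei) and 0 in vehicle mice, which is at least 1.42-fold higher against the floor. The share of nuclei with a UMI was 1.42% of 494 (exact 95% interval 0.572 to 2.9) with FGF1 and 0 of 241 with vehicle, which allows up to 1.24% by the floor of 3 counts and up to 1.52% by the exact interval, so the intervals overlap. An interaction term in a fit of the 4 nuclear groups together asked whether its effect changed from Day 1 to Day 5. The log2 difference, Day 5 minus Day 1, was -1.51 ± 3.63 with a 95% interval of -8.62 to 5.6. With 1 vehicle UMI on Day 1 and 0 on Day 5, this term could not resolve a change in either direction. In FGF1 mice alone the share of nuclei with a UMI was 15.2% (12.3 to 18.5) on Day 1 and 1.42% (0.572 to 2.9) on Day 5. That difference in share was not tested over mice. Of the 43 interactions of the 10 genes, 0 were called by edgeR, the one tool run for this term, against 0.00784% over all genes, and 2 had an unadjusted p under 0.05: Igfbp2 in unmapped neurons (-2.83 ± 0.99, edgeR FDR = 1.00) and Insr in oligodendrocytes (1.26 ± 0.56, edgeR FDR = 1.00).

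Whole cells on Day 5 gave 53 tests in 12 clusters. Of these, 2 were called, Igfbp5 higher in tanycyte-like cluster 0 and Irs2 lower in ependymal-like cluster 6, against 1.75% of all tests, and 10 had an unadjusted p under 0.05. The groups did not overlap for 3 of the 53, 1 with FGF1 above and 2 below, against 1.6% of all tests.

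Tanycytes are specialised ependymoglial cells that sit between ventricular fluid and hypothalamic tissue. In tanycyte-like cluster 0, Igfbp5 was at 238.9, 240.4, 286.1, 326.7, 332.7 and 335.4 CPM in the 6 FGF1 mice and at 166.5, 181.1, 192.7, 201.2, 210.1 and 226.2 CPM in the 6 vehicle mice. The lowest FGF1 mouse stood above the highest vehicle mouse. Each batch holds 1 mouse of each group, so it follows that FGF1 was higher in 6 of 6 batches. The log2 fold change was 0.57 ± 0.117 (SE, edgeR FDR = 0.00354), a 1.48-fold rise, in a cluster where 2.64% of 9441 genes were called higher. It stayed called under the 19 alternatives that keep cluster 0 as it is, and was between 0.52 and 0.62 with single mice left out. With tanycyte-like clusters 0, 7 and 10 summed it was not called (0.46 ± 0.154, edgeR FDR = 0.0866). The tanycyte-like cells were spread differently over these clusters, with a median of 62.1% of them in cluster 0 in FGF1 and 80.7% in vehicle mice, and 22.7% against 10.7% in cluster 7. The astrocyte markers in this cluster summed to 3363 to 4322 CPM with FGF1 and 5282 to 6553 CPM with vehicle (6 of 7 lower), and the tanycyte markers to 1099 to 1526 and 1169 to 1562 CPM. The COP markers summed to 256 to 387 against 212 to 352 CPM (7 of 7 higher) and the OPC markers to 30.2 to 50.1 against 36.3 to 107.7 CPM (5 of 5 lower). Their part in the result was not tested.

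The other ventricular and astrocyte-like clusters were not called for Igfbp5. It was at 117 ± 12.2 CPM against 142 ± 38.8 in tanycyte-like cluster 7 (log2 fold change -0.22 ± 0.181), at 300 ± 186 against 204 ± 46.3 in tanycyte-like cluster 10 (0.53 ± 0.381), and at 301 ± 66.8 against 331 ± 56.8 in ependymal-like cluster 6 (-0.07 ± 0.149). The difference between clusters was tested within mice, as log2(CPM + 1) in cluster 0 minus that in the other cluster, with an exact two-sided permutation test over mice adjusted over 10 such tests. Mice were exchanged over all batches, so the pairing of 1 FGF1 with 1 vehicle mouse in each batch was not kept. The 10 tests set the called pairs, Igfbp5 in cluster 0 and Irs2 in cluster 6, against the other ventricular and astrocyte-like clusters. Picking called pairs favours a difference in advance. FGF1 and vehicle differed by 0.77 for cluster 0 against 7 (exact permutation p = 0.00433, adjusted 0.0433) and by 0.72 for cluster 0 against 6 (p = 0.013, adjusted 0.0433). For cluster 0 against 10 the difference was 0.24 (p = 0.608), against 1 it was 0.34 (p = 0.21) and against 4 it was 1.02 (exact permutation p = 0.0476, adjusted 0.119). With single mice left out, an alternative chosen after seeing the data, between 0 and 2 of the 10 tests passed, and the difference was 0.68 to 0.84 for cluster 0 against 7 and 0.56 to 0.84 for cluster 0 against 6. For cluster 0 against 7, with 5 against 5 or 4 against 6 mice, the smallest exact permutation p is 0.00794 or 0.00952. It cannot pass alone over 10 tests, so a call lost there says nothing of stability. Cluster 0 against 6 kept 5 against 6 or 6 against 5 mice, where a test can pass alone. Its adjusted exact permutation p was 0.0397 without vehicle replicate 22 and 0.0577 to 0.0866 without any other single mouse.

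**Figure D3:**
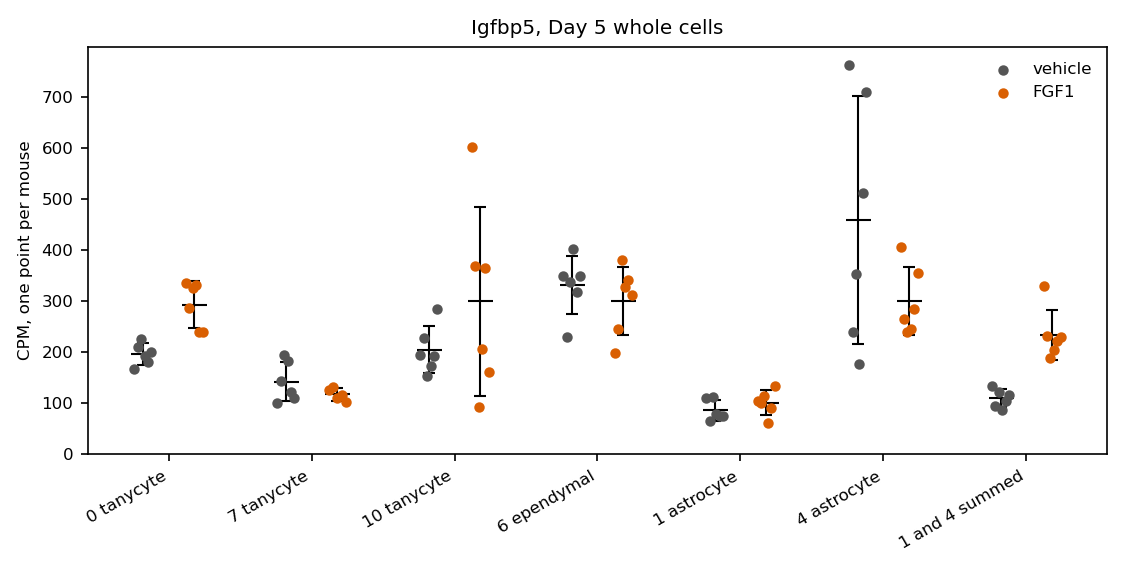
Igfbp5 CPM per mouse in whole cells on Day 5, with mean ± SD (6 mice a group, 5 FGF1 mice in cluster 7), in the tanycyte-like, ependymal-like and astrocyte-like clusters and in clusters 1 and 4 summed. FGF1 mice lie above all vehicle mice in cluster 0 (from 238.9 against up to 226.2 CPM) and in the sum of clusters 1 and 4, but not within cluster 1 or cluster 4.

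Astrocyte-like cells fell into clusters 1 and 4, and Igfbp5 was read in each and in their sum. Within cluster 1 it was at 101 ± 24.2 CPM with FGF1 and 85.7 ± 20.2 with vehicle (log2 fold change 0.37 ± 0.179, edgeR FDR = 0.489), and within cluster 4 at 299 ± 66.7 against 459 ± 244 (-0.61 ± 0.325, edgeR FDR = 0.656). Summed over both clusters, it was 188.8 to 329.0 CPM in FGF1 and 85.7 to 134.0 CPM in vehicle mice, and was called (1.08 ± 0.13, edgeR FDR = 2.04e-06, with 6.55% of 9830 genes called higher). Cluster 4, led by Gfap, Aqp4 and Serpina3n, held 47.9% to 93.1% of the astrocytes of FGF1 mice (median 79.4%, 3412 of 4943 cells in all) and 3.74% to 18.4% of those of vehicle mice (median 6.6%, 697 of 8637 cells). Cluster 4 had the higher Igfbp5 level of the 2 in vehicle mice (459 ± 244 against 85.7 ± 20.2 CPM). The neuron markers summed to 199 to 377 CPM with FGF1 and 341 to 648 with vehicle in cluster 1, and to 189 to 367 against 339 to 1032 in cluster 4 (5 of 5 lower in both). The COP markers summed to 315 to 636 against 281 to 435 in cluster 1 and, without overlap, to 402 to 498 against 274 to 392 in cluster 4 (6 of 7 higher in both). The share of cells in cluster 4 moved with the sum too, clusters were formed on expression, and the part of these shifts in the result was not tested.

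Irs2, the adaptor through which insulin acts on glucose output and appetite in several tissues, was lower in ependymal-like cluster 6, the ciliated cells of the ventricle wall. The FGF1 mice had 0, 27.9, 31.0, 32.3, 40.6 and 45.4 CPM and the vehicle mice 48.9, 53.2, 53.8, 55.2, 67.7 and 74.3 CPM. The groups did not overlap, from which it follows that FGF1 was lower in 6 of 6 batches. The log2 fold change was -0.75 ± 0.198 (SE, edgeR FDR = 0.0416), with 0.743% of 6734 genes called lower. The ependymal markers summed to 5855 to 7679 CPM with FGF1 and 4804 to 7661 CPM with vehicle (4 of 6 higher). Markers of other cells were lower with FGF1 for 6 of 7 astrocyte genes (2102 to 2618 against 2137 to 3588 CPM), 4 of 5 neuron genes (459 to 959 against 763 to 1037), 5 of 6 oligodendrocyte genes (91.9 to 292.6 against 94.3 to 479.9) and 6 of 7 pericyte genes (0 to 88.5 against 56.0 to 119.9), and their part in the result was not tested. The mouse at 0 CPM (FGF1 replicate 6) had 19 cells in the cluster, and without it the log2 fold change was -0.73 (FDR = 0.0436). The call is close to the threshold: it was lost in 12 of 18 alternatives. The edgeR FDR was 0.102 with the batch as a block and 0.0779 without the filter on low counts. It was 0.0511 within the study's limit of 20% mitochondrial or ribosomal UMIs, and up to 0.178 with single mice left out. DESeq2 is not among the 18: Irs2 had no adjusted p there, so that tool did not call it either. The log2 fold change stayed between -0.85 and -0.66 with single mice left out.

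In cluster 0 Irs2 was at 33.6 to 79.8 CPM with FGF1 and 31.9 to 58.7 with vehicle (-0.16 ± 0.171). Measured within mice, cluster 6 minus cluster 0 differed between FGF1 and vehicle by -1.59 (exact permutation p = 0.013, adjusted 0.0433), and the SD of that value over FGF1 mice was 2.52 against 0.41 over vehicle mice, since log2(CPM + 1) of the mouse at 0 CPM is far from the rest. Without that mouse (FGF1 replicate 6) the difference was -0.56 (exact permutation p = 0.026, adjusted 0.0866), so the size and the call rest on it. The 4 tests against clusters 7, 10, 1 and 4 did not pass. Irs2 was below 0 in cluster 4 (-0.61 ± 0.292, edgeR FDR = 0.5) and OPC-like cluster 5 (-0.33 ± 0.173, edgeR FDR = 0.341).

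Igf1r in cluster 0 was at 53.2, 71.8, 72.6, 73.6, 76.8 and 81.6 CPM with FGF1 and 82.4, 86.2, 87.3, 96.5, 106.5 and 113.8 CPM with vehicle. The groups just failed to overlap, from which it follows that FGF1 was lower in 6 of 6 batches. The test over all genes did not call Igf1r (-0.37 ± 0.123, edgeR FDR = 0.0737). Igfbp4, which encodes a binding protein that holds IGFs off the receptor, was at 5.26, 10.7, 13.5, 15.5, 16.9 and 20.4 CPM against 15.6, 21.3, 25.5, 25.7, 26.0 and 29.0 in the same cluster (-0.75 ± 0.239, edgeR FDR = 0.0617), lower in 6 of 6 batches. In cluster 7 Igfbp4 was at 18.8, 22.9, 24.7, 44.8 and 57.7 CPM against 30.2, 45.0, 52.0, 87.2, 100.4 and 149.2 (-1.10 ± 0.367, edgeR FDR = 0.143), lower in 5 of 5 batches. With the batch as a block, both Igfbp4 results were called (edgeR FDR = 0.0248 and 0.00122). In cluster 7 the astrocyte markers summed to 3011 to 3752 CPM with FGF1 and 3693 to 5224.5 with vehicle (6 of 7 lower). The tanycyte markers were lower for 7 of 9 genes, and the ependymal and pericyte markers higher for 5 of 6 and 6 of 7. The tanycyte-like cells were also spread differently over clusters 0 and 7, as given above. The part of these shifts in the Igfbp4 results was not tested.

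**Figure D4:**
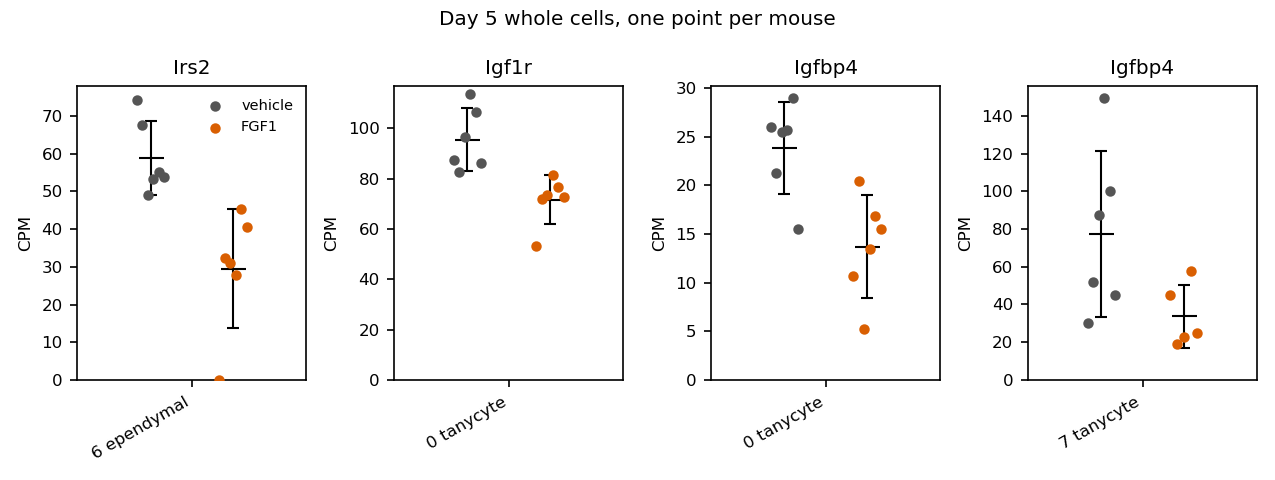
CPM per mouse with mean ± SD in whole cells on Day 5 for Irs2 in cluster 6, Igf1r in cluster 0 and Igfbp4 in clusters 0 and 7. FGF1 mice lie below all vehicle mice for Irs2 (up to 45.4 against from 48.9 CPM) and Igf1r (up to 81.6 against from 82.4 CPM), and overlap them for Igfbp4.

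The other whole-cell tests did not pass. Igf1r in endothelial-like cluster 3, its highest site, was at 730.7 to 1147.5 CPM with FGF1 and 771.2 to 961.2 with vehicle (0.02 ± 0.124), and in OPC-like cluster 5 at 35.6 to 98.9 against 90.8 to 131.0 (-0.53 ± 0.187, edgeR FDR = 0.12). Insr in cluster 3 was at 114 ± 33.2 against 115 ± 23.9 CPM (-0.01 ± 0.17). In cluster 6 Insr was lower with FGF1 in 6 of 6 batches, but the groups overlapped (-0.30 ± 0.214, edgeR FDR = 0.579). Irs1 had values above 0 in 5 of 5 clusters (0.09 to 0.26) and no unadjusted p under 0.05. Igfbp2 in cluster 6 was at 10.4 ± 9.18 against 23.6 ± 7.74 CPM (-0.63 ± 0.321, edgeR FDR = 0.391). In VLMC-like cluster 13, its highest site, it was at 94.2 to 901.2 CPM in 5 FGF1 and 101.3 to 484.9 in 4 vehicle mice (0.67 ± 0.734, edgeR FDR = 1.00), with overlap. Among clusters without a test, OPC-like cluster 5 held 12 against 4 UMIs (ratio 5.34, counting interval 1.62 to 22.7), tanycyte-like cluster 10 held 12 against 0 (at least 2.0-fold higher against the floor) and tanycyte-like cluster 7 held 1 against 3 (ratio 0.074, 0.00141 to 0.922), and the mice overlapped in each. In astrocyte-like cells Igfbp2 was too low to be tested, with 25 UMIs in FGF1 and 39 in vehicle mice over clusters 1 and 4 (ratio 0.995, counting interval 0.577 to 1.69). Within cluster 1 it had 11 against 38 UMIs (ratio 1.43, 0.657 to 2.85). The shares of cells in clusters 1 and 4 differed between the groups, as given above. The summed ratio therefore does not compare like cells and does not show equal levels. Igfbp3 in clusters 3 (0.42 ± 0.602) and 5 (0.35 ± 0.207) and Igfbp7 in clusters 3 (0.20 ± 0.216) and 13 (-0.30 ± 0.58) were not called.

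**Figure D5:**
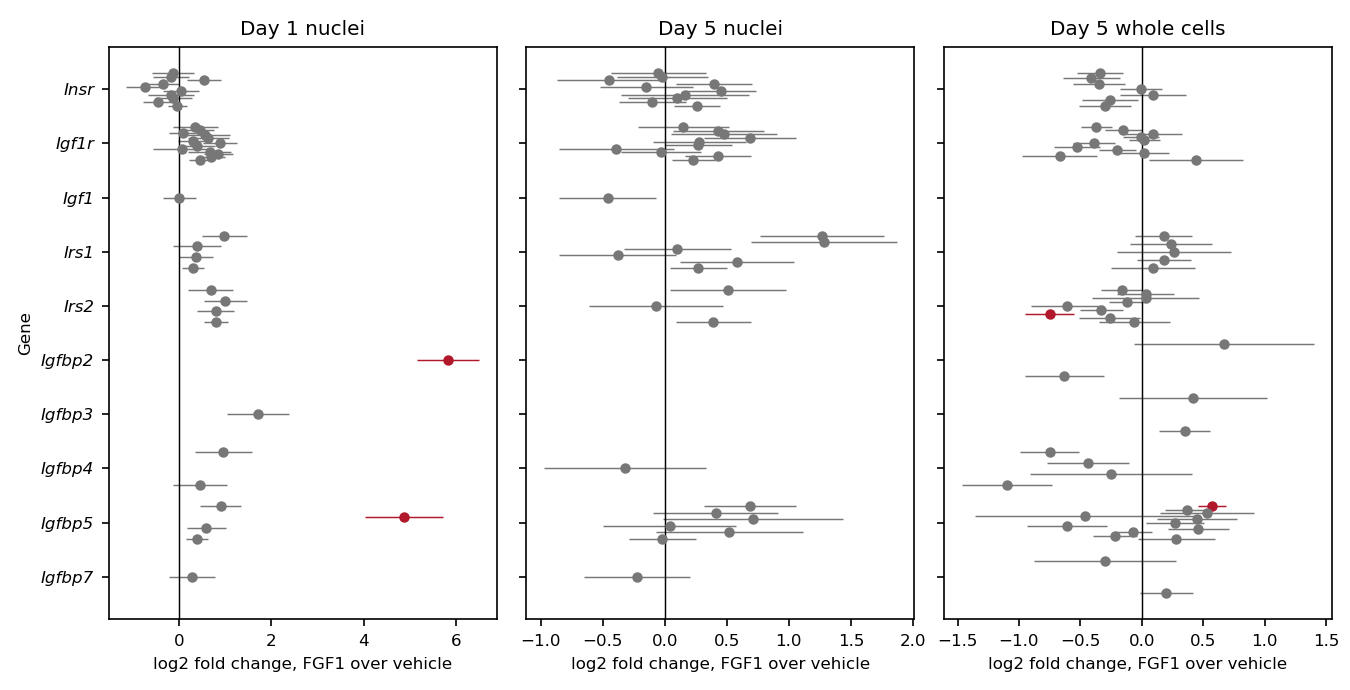
Log2 fold change of FGF1 over vehicle with its SE for each gene in each cell type in which it was tested, in Day 1 nuclei (41 tests), Day 5 nuclei (38) and Day 5 whole cells (53); each point is 1 cell type and red marks an FDR below 0.05. The red points are Igfbp2 (5.82) and Igfbp5 (4.86) on Day 1 and Igfbp5 (0.57) and Irs2 (-0.75) in Day 5 cells.

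A list of 61 further genes of the pathway, picked by role, was read from the same fits, and 51 of them were tested in some type. Over all genes, 1.05%, 0.288% and 1.75% of tests were called in Day 1 nuclei, Day 5 nuclei and Day 5 cells. On Day 1, 0 of 303 tests were called higher and 1 lower, with 18 at an unadjusted p under 0.05 and a median log2 fold change of -0.04. The gene was Gab1, an adaptor that docks PI3K and SHP2, in ependymal nuclei, at 238.3, 213.5 and 170.9 CPM with FGF1 and 355.8, 559.5 and 572.7 with vehicle (-1.23 ± 0.39, edgeR FDR = 0.0349), without overlap. In that type 8.86% of the 1456 genes tested were called lower. The marker sums of ependymal nuclei given above moved with it, and their part was not tested. In Day 5 nuclei 1 of 283 tests was called higher and 0 lower, with 21 at an unadjusted p under 0.05 and a median of 0.09. It was Pik3r3, a regulatory subunit of PI3K, in COP nuclei, at 549.7 and 837.4 CPM with FGF1 and 213.9 and 199.5 with vehicle (1.74 ± 0.292, edgeR FDR = 0.00116), where 0.85% of the 5767 genes tested were called higher. The FGF1 mice held 197 and 492 UMIs in 85 and 202 nuclei, and the vehicle mice 36 and 15 UMIs in 52 and 17 nuclei. That label also met 4 of 5 OPC markers, and the part of a shift in its makeup was not tested. In Day 5 whole cells 0 of 276 tests were called by edgeR, the one tool read for the list, with 26 at an unadjusted p under 0.05 and a median of -0.08. By role, the median log2 fold change of the AKT and mTOR genes was -0.05, 0.15 and -0.11 in the 3 comparisons, that of the PI3K subunits 0.00, 0.02 and -0.08, that of the adaptors -0.02, 0.24 and -0.05, and that of the FoxO factors -0.21, 0.03 and -0.09. Ins1, Ins2, Insrr, Igfbp1, Igfals, Stc2, Irs3, Eif4ebp1, Trib3 and Foxo6 did not pass the filter in any type.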

How the data were processed

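Hypothalamic nuclei and cells were profiled with the 10x 3′ v2 assay. The authors aligned reads with Cell Ranger 1.2 (as the submitters' processing notes name it) to GRCm38 and deposited raw UMI counts per gene and barcode, with metadata that give UMI counts and, for cells, the percent of mitochondrial and ribosomal UMIs. Introns were counted for nuclei. The authors removed doublets from cells with Scrublet and ran no doublet caller on nuclei, and none was run here. Their stated limits were 5% (nuclei) and 20% (cells) mitochondrial or ribosomal UMIs, and 954 of 24965 nuclei and 4382 of 54890 cells in the files lie above them. Nuclei marked as filtered by silhouette score and the authors' normalised tables were not used here.

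Counts were summed per mouse and type, with at least 10 barcodes per mouse and 2 mice per group, and tested in edgeR 4.0.16 (R 4.3.3, limma 3.58.1) with filterByExpr, TMM, a robust quasi-likelihood fit and Benjamini-Hochberg adjustment over all genes of the type. DESeq2 1.42.0 was an alternative. Standard errors are the log2 fold change over the root of F. Differences between clusters used exact permutation (scipy 1.17.1, numpy 2.4.6, pandas 2.3.3, Python 3.11.15). The edgeR step was tested on simulated data. Each of the authors' batches holds 1 FGF1 and 1 vehicle mouse. Mice were grouped by their labels. The rule for naming was all 10 genes in every type tested and every called gene of the pathway list; tests of the 10 genes that were not called are given in part as counts and ranges, without naming each type. The genes and lists were chosen with earlier results of these data known. Depth per mouse stands at the head of the results, and counting intervals cover counting error only, since cells of a mouse are not replicates.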

Additional observations from a re-analysis of the deposited data

Results flagged for a closer look

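Igf1r in tanycyte-like cluster 0 was at 53.2 CPM in FGF1 replicate 6 (10 UMIs in 167 cells), apart from the other 5 FGF1 mice, of which the next was at 71.8 CPM. Igfbp5 in endothelial-like cluster 3 was at 150.4 CPM in FGF1 replicate 7 (47 UMIs in 184 cells), with the next mouse at 79.1 CPM. These are 2 of 106 groups checked for a mouse far from the others (1.89%), and chance alone marks about 1 in 20.

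The effect of FGF1 differed between clusters of whole cells in 3 of 10 exact permutation tests over mice, which did not keep the batch pairs. The 10 tests start from the called pairs, Igfbp5 in cluster 0 and Irs2 in cluster 6, which favours a difference in advance. For Irs2 the difference of cluster 6 minus cluster 0 was -1.59 on the log2 scale, FGF1 minus vehicle, with 1 FGF1 mouse (replicate 6) at 0 CPM. Without that mouse it was -0.56 (exact permutation, adjusted p = 0.0866), and 1 of the 10 tests passed, that of Igfbp5 in cluster 0 minus cluster 7. No test passed without FGF1 replicate 7, 10, 21 or 28 or vehicle replicate 20, 29 or 35, but at those numbers of mice the test of cluster 0 minus cluster 7 cannot pass alone. It gave the smallest p its size allows each time, with a difference of 0.69 to 0.84. For Igfbp5 the difference of cluster 0 minus cluster 7 was 0.77, and that of cluster 0 minus cluster 6 was 0.72 (0.56 without FGF1 replicate 6, exact permutation, adjusted p = 0.0866). With single mice left out, cluster 0 minus cluster 6 passed only without vehicle replicate 22.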

How the results depend on the processing

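On Day 1, Igfbp2 in astrocytes and Igfbp5 in VLMC made 2 calls, and 11 of 16 alternatives gave a count of 2. These were the same 2 calls except within the 5% limit without the filter, where they were Igfbp2 and Igfbp3 in astrocytes. The count was 1 with the authors' batch as a block, 1 with a minimum of 20 nuclei, 1 with all 4 groups in 1 fit and 0 within the 5% limit, where VLMC had too few nuclei to be fitted, as with the minimum of 20. It was 1 to 2 with single mice left out, the 1 being without vehicle replicate 1. With replicate number as a block the same 2 genes were called (FDR = 0.000228 and 0.00163). Same-numbered mice correlated between -0.504 and 0.522 in 3 types, so the numbers do not pair the mice. Day 5 nuclei gave 0 calls in 12 of 12 alternatives, of which 4 leave an arm with 1 mouse that is assumed to vary like the others and say nothing of stability, and the interaction 0 in 11 of 11. In Day 5 cells the count of 2 became 1 with DESeq2, where Irs2 had no adjusted p, 1 within the 20% limit, and 1 to 4 with single mice left out. The batch block gave 3, losing Irs2 and adding Igfbp4 in clusters 0 and 7, and without the low-count filter the 2 were Igfbp5 in cluster 0 and Igfbp4 in cluster 7. The count was 1 without FGF1 replicates 10, 21 or 36 or vehicle replicates 20, 22, 25, 27 or 29, where Irs2 was lost. Irs2 was also lost without FGF1 replicate 7, where Igfbp4 in cluster 0 made up the 2. It was 4 without FGF1 replicate 28, which added Igfbp4 in clusters 0 and 7, and without vehicle replicate 35, which added Igfbp4 and Igf1r in cluster 0 (FDR = 0.0255 and 0.0493). With clusters of one name merged the 2 were Igfbp5 in astrocytes and Irs2, not Igfbp5 in tanycytes. Tests between clusters passed in 3 of 10 also with log2(CPM + 5), and in 0 to 2 with single mice left out. The batch block could not be fitted for 2 Day 1 neuron types. The left-out mice of cluster tests, the merged-cluster alternatives, the minimum of 5 nuclei and the 5% limit without the filter were chosen after seeing the data. The called results, and Igf1r and Igfbp4 in cluster 0 and Igfbp4 in cluster 7, kept their direction in the alternatives run. Among uncalled tests the batch block turned some signs: from 1 above 0 of 2 to 0 for Igfbp2, 4 of 11 to 3 for Igf1r, 2 of 9 to 1 for Irs2 and 7 of 11 to 8 for Igfbp5 in Day 5 cells, and from 5 of 10 to 6 for Insr and 5 of 6 to 4 for Igfbp5 in Day 5 nuclei. Low UMI counts limit Igfbp2 and Igfbp3 in nuclei.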
